A study of Mus musculus with 8 samples.

Results

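This account describes what 2 hours of dexamethasone alone did to gene expression in 7438 cells, a mouse mammary line, by setting the 2 arrays of cells given dexamethasone against the 2 arrays of untreated cells, 4 of the 8 arrays of the series. Arrays were assigned by their titles, and every probe set and every gene with its own probe set was compared. The line carries a glucocorticoid receptor joined to green fluorescent protein and an estrogen receptor joined to Cherry, under a tetracycline-regulated promoter. All groups shared the same preparation: cells were maintained with tetracycline at 5 ug/ml, kept for 48 hours in medium with 10% charcoal-stripped serum, and freed of tetracycline 24 hours before harvest. The Dex group received 100 nM dexamethasone (Dex) for 2 hours and the untreated group received no hormone. The other arrays, 2 of cells given 100 nM Dex with 100 nM estradiol (Dex+E2) and 2 of cells given 100 nM estradiol (E2), entered the same fit and served as a second setting in which Dex was added. For 2 of these arrays, E2 replicate 2 and Dex+E2 replicate 1, the description field mentions a receptor ChIP. Their title and treatment are those of expression arrays. The comparison of Dex+E2 with E2 is given with and without them. They also entered the estimate of the spread behind the standard errors and adjusted p-values of Dex against untreated. For Dex against untreated, the count of genes is also given with its 4 arrays alone, but not without just these 2 arrays.

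Dexamethasone is a synthetic glucocorticoid. The receptor it binds waits in the cytoplasm on Hsp90 and its co-chaperones, moves to the nucleus when the hormone binds, and raises or lowers the transcription of genes near which it sits on chromatin. It is best known for raising genes that stop inflammatory and MAP kinase signalling, for lowering genes driven by NF-kappaB and AP-1, and, in the mammary gland, for acting with prolactin on milk protein genes.

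Whether the arrays of a group stem from separate cultures is not stated, so the p-values reflect the spread between arrays, which may be only technical. Replicate arrays correlated at 0.9986 for Dex and 0.9981 for untreated cells over 18194 genes, and 19 genes differed by more than 0.5 log2 units between the Dex arrays and 56 between the untreated arrays. Values are log2 signals from RMA, a method that corrects background and gives the probe intensities of all arrays the same distribution. It then sums up the probes that make 1 probe set. The resulting probe set values differed slightly in distribution, with array medians of 5.58 to 5.67. A signal can be compared between arrays but not between genes. Of 14 epithelial markers, 2 averaged below 4.36, the lower quartile of all probe sets over the 4 arrays, and 1 (Krt14) lay above 7.82, the upper quartile. Cdh1, which encodes E-cadherin, averaged 3.25 over the 4 arrays. Of 12 mesenchymal markers, 9 lay above the upper quartile and 0 below the lower quartile, with Vim, which encodes vimentin, at 13.96. These levels are given as signals of single probe sets and do not rank the expression of the genes. The median epithelial marker was at 5.3 and 5.38 on the Dex arrays and at 5.31 and 5.3 on the untreated arrays.

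Dex moved a small share of the genes, and the rises were larger than the falls. Of 18194 genes, 267 (1.47%) passed the threshold of an adjusted p under 0.05 (limma, Benjamini-Hochberg over all genes), 157 higher (0.863%) and 110 lower (0.605%). A change of at least 4-fold, or 2 log2 units, was reached by 19 of the higher genes and by 0 of the lower ones. The median change was 0.868 log2 units over the higher genes, -0.671 over the lower genes and 0.0041 over all genes. The smallest changes that passed were 0.414 and -0.41. In all 267 genes the Dex arrays lay wholly above or wholly below the untreated arrays, which was also so for 34.7% of all genes tested. The count depended on each array: it was 131 without Dex replicate 1, 157 without Dex replicate 2, 156 without untreated replicate 1 and 144 without untreated replicate 2. In 119 genes, 82 higher and 37 lower, the call was made in all 4 of these fits. Below, a gene is said to have lost its call when 1 of these 4 arrays was left out, and each named gene to which that applies is marked so.

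**Figure D1:**
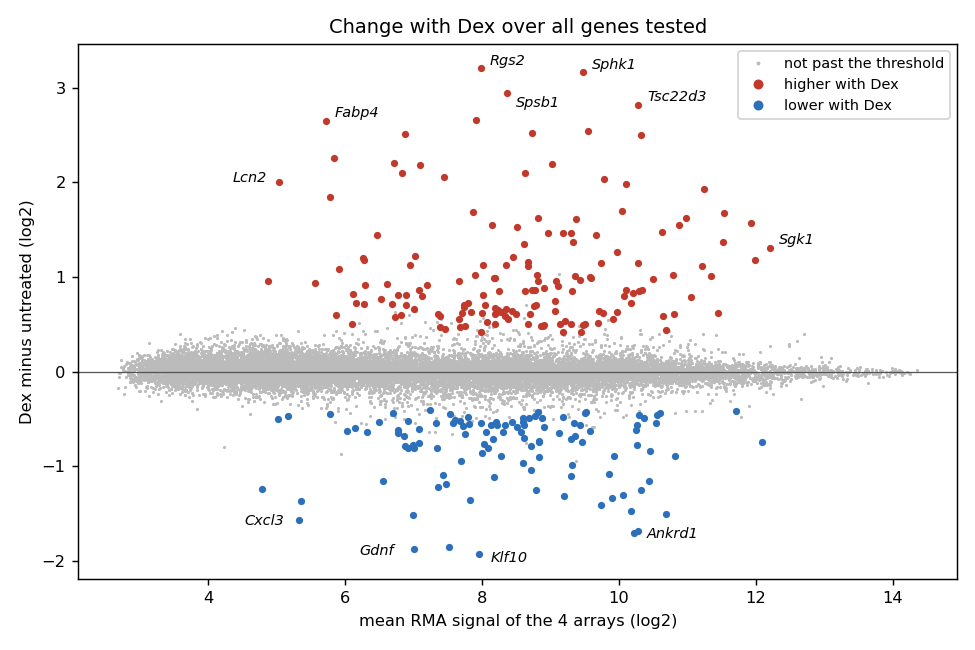
Change with Dex (Dex minus untreated, log2) of each of 18194 genes against its mean signal over the 4 arrays. Coloured points are the 157 higher and 110 lower genes past the threshold; the higher ones reach 3.21 and the lower ones -1.93.

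The 3 largest rises were in Rgs2, Sphk1 and Spsb1. Rgs2, which switches off G proteins of the Gq class, had log2 signals of 9.40 and 9.77 with Dex, against 6.22 and 6.54 in untreated cells, a difference of 3.21 ± 0.22 (standard error from limma, as after every difference here). Sphk1, the kinase that makes sphingosine 1-phosphate, had 11.18 and 10.93 with Dex, against 7.84 and 7.94 in untreated cells (3.16 ± 0.13). Spsb1, a SOCS-box adaptor that brings substrates to ubiquitin ligases, had 9.85 and 9.82 with Dex, against 6.82 and 6.95 in untreated cells, the smallest adjusted p of the table (2.95 ± 0.10, limma, adjusted p = 7.93e-07). Its other 3 probe sets, all dimmer, differed by 0.26, 1.00 and 1.28, and their mean with the one used rose by 1.37. In these 3 genes the gap between the groups was several times the spread within either. Of 20 genes of G-protein and sphingosine signalling, Rgs2 and Sphk1 were the only 2 past the threshold, and the median of that list was 0.018. Of 13 SOCS-box and ubiquitin adaptor genes, 2 rose and 0 fell, the other being Cblb, a ubiquitin ligase that dampens receptor signalling, by 0.61 ± 0.12. Cblb lost its call without any 1 of the 4 arrays (limma, adjusted p 0.114 to 0.358).

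**Figure D2:**
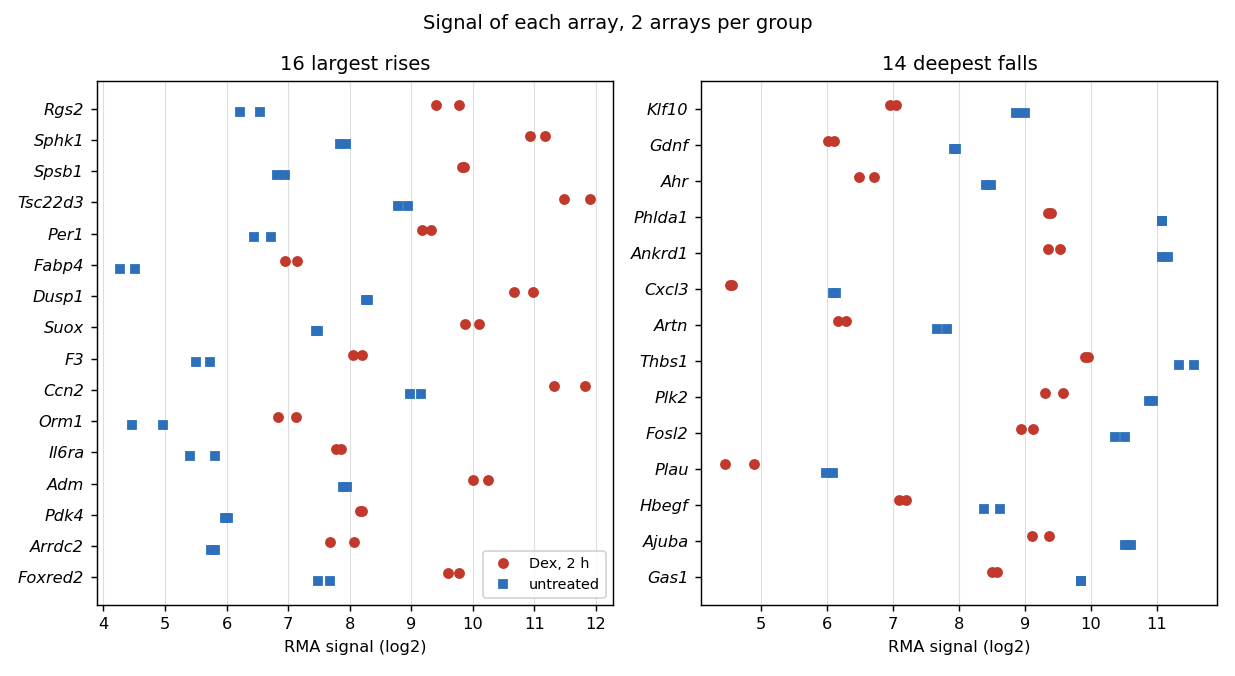
RMA signal (log2) on each array of the 16 genes with the largest rises and the 14 with the deepest falls; circles are the 2 Dex arrays and squares the 2 untreated arrays of a gene. In every row the circles and the squares stand apart, from 9.40 and 9.77 against 6.22 and 6.54 in Rgs2 to 8.51 and 8.57 against 9.86 and 9.85 in Gas1.

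Most classical targets of the receptor rose. Of 27 textbook glucocorticoid targets, 20 rose and 0 fell, and their median change was 1.55, against 0.0041 over all genes. That list, like the other gene lists used here, was drawn up with earlier results of these arrays known. It is not independent evidence of its direction, and the counts of the other lists have the same limit. Tsc22d3, the glucocorticoid-induced leucine zipper that binds NF-kappaB and AP-1 proteins, had 11.90 and 11.48 with Dex, against 8.79 and 8.95 in untreated cells (2.82 ± 0.23). Pdk4, which blocks the entry of pyruvate into the citric acid cycle, had 8.20 and 8.17 with Dex, against 6.03 and 5.97 in untreated cells (2.18 ± 0.15). Sgk1, a kinase that raises sodium transport, had 12.93 and 12.80 with Dex, against 11.52 and 11.59 in untreated cells (1.31 ± 0.14). The 7 targets that did not pass were Pck1, Mt2, Anxa1, Tat, Cdkn1c, Zbtb16 and Angptl4. Of these, Angptl4, which encodes a secreted inhibitor of lipoprotein lipase, stood apart: it had 8.38 and 8.15 with Dex, against 8.95 and 9.09 in untreated cells (-0.76 ± 0.19, limma, adjusted p = 0.119). It is singled out here after its values were seen.

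Promoters are shown for the 5 higher genes that held a full receptor site, since these sites are the sequence through which the receptor is known to bind DNA directly. The windows come from RefSeq (GRCm38.p6), run from 250 bases before to 50 bases after a gene's start, and were found for 204 of the 267 genes. The letters searched were the arm GNACA, any 3 bases and the arm TGTNC, a pattern that reads the same on both strands. They occurred in 6 of 174 windows of higher genes (3.45%), in 0 of 103 windows of lower genes, and in 66 of 18110 windows of all genes tested (0.364%). The 5 genes were Suox (sulfite oxidase), Mt1 (a metallothionein that binds zinc), Sgk1, Fam107a (an actin-binding protein, with 2 windows) and Slc10a6 (a carrier of sulfated steroids). Only Suox was chosen by the size of its change; the other 4 are shown after their values were seen. The 250 bases before each start are printed 5′ to 3′ along the gene's strand, with the site in capitals.
Suox, chr10:128673919-128674168, minus strand, site beginning 46 bases before the start: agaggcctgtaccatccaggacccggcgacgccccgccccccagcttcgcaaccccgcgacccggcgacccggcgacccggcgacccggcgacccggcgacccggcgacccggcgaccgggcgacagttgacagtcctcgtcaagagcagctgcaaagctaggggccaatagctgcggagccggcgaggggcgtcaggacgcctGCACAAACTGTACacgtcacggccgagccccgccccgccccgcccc
Mt1, chr8:94178839-94179088, plus strand, 94 bases before: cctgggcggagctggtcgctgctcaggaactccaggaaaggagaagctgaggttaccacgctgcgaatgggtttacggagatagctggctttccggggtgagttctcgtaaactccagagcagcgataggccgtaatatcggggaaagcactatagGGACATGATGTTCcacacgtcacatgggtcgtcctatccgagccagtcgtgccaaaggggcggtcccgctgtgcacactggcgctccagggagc
Sgk1, chr10:21993640-21993889, plus strand, 188 bases before: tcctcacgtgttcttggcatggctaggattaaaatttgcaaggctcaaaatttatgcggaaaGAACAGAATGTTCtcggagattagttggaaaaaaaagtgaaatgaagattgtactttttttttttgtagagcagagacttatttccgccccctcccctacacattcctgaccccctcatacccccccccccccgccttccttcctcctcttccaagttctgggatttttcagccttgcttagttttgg
Fam107a, chr14:8309780-8310029, minus strand, 118 bases before: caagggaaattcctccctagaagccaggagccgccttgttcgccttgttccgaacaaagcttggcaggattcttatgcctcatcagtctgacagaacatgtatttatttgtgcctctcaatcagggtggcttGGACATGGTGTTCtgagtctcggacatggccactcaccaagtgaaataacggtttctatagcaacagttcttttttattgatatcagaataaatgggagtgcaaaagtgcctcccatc
Slc10a6, chr5:103629404-103629653, minus strand, 163 bases before: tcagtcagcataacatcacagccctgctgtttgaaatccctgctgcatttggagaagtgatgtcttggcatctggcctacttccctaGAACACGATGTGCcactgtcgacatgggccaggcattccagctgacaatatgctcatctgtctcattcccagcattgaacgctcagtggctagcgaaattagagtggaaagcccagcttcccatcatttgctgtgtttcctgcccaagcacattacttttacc
The single arm AGAACA, sought on both strands, stood in 14.9% of windows of higher genes, 14.6% of lower genes and 14.7% of all genes. It stood in 11.4% of windows of genes that rose at least 2-fold and in 22.7% (5 of 22) of those that fell at least 2-fold. Such matches describe these letters only, and most of the receptor's sites are known to lie outside promoters.

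The genes above with a site moved as follows. Suox had 10.11 and 9.88 with Dex, against 7.45 and 7.48 in untreated cells (2.52 ± 0.14). Mt1 had 11.73 and 11.58 with Dex, against 9.98 and 10.23 in untreated cells (1.55 ± 0.15). Fam107a rose by 0.93 ± 0.11 and Slc10a6 by 0.82 ± 0.14. Dimmer probe sets of Fam107a differed by 2.76 ± 0.34 and 0.35 ± 0.11 in the fit of every probe set. Slc10a6 lost its call without Dex replicate 1, untreated replicate 1 or untreated replicate 2 (limma, adjusted p 0.123 to 0.198). Of 13 metallothionein and redox genes, Suox and Mt1 were the 2 that rose, and 0 fell, where 1.47% of all genes tested passed. Sulfite oxidase acts at the end of the breakdown of sulfur amino acids.

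Single genes of the receptor's own machinery passed, where 1.47% of all genes tested did. Fkbp5, an Hsp90 co-chaperone that lowers the receptor's affinity for hormone, had 11.89 and 11.70 with Dex, against 10.18 and 10.16 in untreated cells (1.62 ± 0.11), and was the 1 gene of 13 receptor chaperones past the threshold. Nr3c1, the gene of the glucocorticoid receptor, had 9.41 and 9.56 with Dex, against 9.96 and 9.95 in untreated cells. The groups did not overlap, but the difference of -0.47 ± 0.12 did not pass (limma, adjusted p = 0.114). It passed in a fit of the 4 arrays alone (limma, adjusted p = 0.0221). Esr1, the estrogen receptor gene, had 6.98 and 7.18 with Dex, against 7.05 and 6.92 in untreated cells, overlapping groups (0.09 ± 0.16). Which of the 2 genes' probe sets detect the transgenes was not tested. Of 9 steroid receptor genes, Vdr, the vitamin D receptor, was the 1 that rose, by 0.66 ± 0.095, and it lost its call without Dex replicate 1 (limma, adjusted p = 0.089) or untreated replicate 1 (limma, adjusted p = 0.0692).

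Of 13 receptor coregulators, 1 rose and 1 fell, where 1.47% of all genes tested passed. Nrip1, a corepressor of nuclear receptors, rose by 0.48 ± 0.098. Nrip1 lost its call without any 1 of the 4 arrays (limma, adjusted p 0.25 to 0.332) and with the mean of its probe sets (limma, adjusted p = 0.135), with arrays centred on their median (0.0592) and in the fit of every named probe set (0.0584). Ppargc1b, a coactivator of mitochondrial genes, had 6.54 and 6.43 with Dex, against 7.26 and 7.29 in untreated cells (-0.79 ± 0.096). Of 19 estrogen target genes, which also hold Nrip1, 1 rose and 0 fell.

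Some genes that brake inflammatory signalling rose, and 2 of 22 cytokine genes fell, against 0.605% of all genes tested. Of 20 inflammatory brakes, 5 rose and 1 fell, and the list's median was 0.27. Nfkbia, the inhibitor that holds NF-kappaB in the cytoplasm, had 12.68 and 12.75 with Dex, against 11.27 and 11.02 in untreated cells (1.57 ± 0.14). Its 5 probe sets all rose, by 1.19 to 2.08, in the fit of every probe set. Zfp36, tristetraprolin, which marks cytokine mRNAs for decay, had 8.42 and 8.54 with Dex, against 6.44 and 6.40 in untreated cells (2.06 ± 0.16). Its relatives split: Zfp36l2 had 12.29 and 12.12 with Dex, against 10.77 and 10.89 in untreated cells (1.37 ± 0.13), and Zfp36l1 had 9.43 and 9.37 with Dex, against 10.72 and 10.70 in untreated cells (-1.31 ± 0.11). All 3 encode proteins that bind AU-rich elements of mRNA, and 2 of them rose while the other fell.

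Of 22 cytokine and chemokine genes, 2 fell, 0 rose, and the median was 0.003. Csf1, the growth factor of macrophages, had 9.93 and 9.80 with Dex, against 10.99 and 11.04 in untreated cells (-1.15 ± 0.11). Cxcl3, a neutrophil chemokine, had 4.56 and 4.53 with Dex, against 6.14 and 6.08 in untreated cells (-1.57 ± 0.25). The Cxcl3 arrays lay close together within each group, yet the call was lost without any 1 of the 4 (limma, adjusted p 0.107 to 0.119). Of 14 interferon response genes, Irf1, an inflammatory transcription factor, was the 1 that fell (-0.64 ± 0.11), and 0 rose. Irf1 lost its call without any 1 of the 4 arrays (limma, adjusted p 0.0712 to 0.202). Of 11 prostaglandin genes 0 passed, near the 1.47% of all genes (limma, with 0 higher and 1 lower at a raw p under 0.05). That gene was Ptgs2, the inducible cyclooxygenase, with 9.52 and 9.46 with Dex, against 9.92 and 9.90 in untreated cells (-0.42 ± 0.14, limma, adjusted p = 0.386). It passed in a fit of the 4 arrays alone (limma, adjusted p = 0.0314).

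The NF-kappaB pattern was GGG, any 2 bases and TTTCC, sought on both strands. It stood in 3 of the 22 windows of genes that fell at least 2-fold (13.6%). For genes that rose at least 2-fold it stood in 2 of 79 windows (2.53%). The share was 3.88% for windows of all lower genes, 1.15% for higher genes and 1.58% for all genes. The 3 genes with a match that fell at least 2-fold were Csf1, Cxcl3 and Cd300lb. Promoters of the 2 cytokine genes are given because they were the only cytokine genes that fell. They are shown after their values were seen, in the same way as above.
Csf1, chr3:107760470-107760719, minus strand, match beginning 154 bases before the start: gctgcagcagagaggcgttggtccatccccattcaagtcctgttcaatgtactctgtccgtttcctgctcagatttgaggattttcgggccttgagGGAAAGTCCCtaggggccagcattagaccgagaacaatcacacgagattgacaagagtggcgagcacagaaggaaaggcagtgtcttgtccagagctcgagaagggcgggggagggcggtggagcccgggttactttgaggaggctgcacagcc
Cxcl3, chr5:90785851-90786100, plus strand, 73 bases before: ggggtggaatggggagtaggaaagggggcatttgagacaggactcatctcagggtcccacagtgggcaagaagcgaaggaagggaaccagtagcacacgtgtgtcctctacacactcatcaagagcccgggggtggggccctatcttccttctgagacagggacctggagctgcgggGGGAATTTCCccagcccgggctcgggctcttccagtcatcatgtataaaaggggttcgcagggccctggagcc
The AP-1 letters TGANTCA, sought on both strands, were found in 6.9% of windows of higher genes, 4.85% of lower genes and 6.38% of all genes. Letters of a TATA box, a GC box, a CRE and a TEAD site were also searched in the same sets and are not described. The NF-kappaB count is thus 1 of several looked at, and its difference from the other shares was not tested.

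A cytokine receptor gene and some acute-phase genes rose. Il6ra, the binding chain of the interleukin 6 receptor, had 7.78 and 7.85 with Dex, against 5.81 and 5.41 in untreated cells (2.21 ± 0.15), and was the 1 gene of 16 cytokine receptor and Jak-Stat genes past the threshold. Its other probe set differed by 0.18 and did not pass. Orm1, an acute-phase plasma glycoprotein, had 6.83 and 7.12 with Dex, against 4.97 and 4.47 in untreated cells (2.26 ± 0.22). Orm3, its near-identical neighbour, rose by 1.85 ± 0.081, and the probe sets of these copies may read each other. Lcn2, a siderophore-binding protein, had 5.98 and 6.10 with Dex, against 4.14 and 3.94 in untreated cells (2.00 ± 0.17). Ptx3, a secreted pattern recognition protein, went the other way, with 8.35 and 7.98 with Dex, against 9.42 and 9.42 in untreated cells (-1.25 ± 0.20). Ptx3 lost its call without Dex replicate 2, untreated replicate 1 or untreated replicate 2 (limma, adjusted p 0.0949 to 0.124). In all, 2 of 13 acute-phase and defence genes rose and 1 fell, against 0.863% and 0.605% of all genes tested.

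Clotting and plasminogen genes moved in opposite directions. F3, tissue factor, which starts coagulation, had 8.21 and 8.05 with Dex, against 5.50 and 5.74 in untreated cells (2.51 ± 0.23). Plau, urokinase, had 4.45 and 4.89 with Dex, against 5.99 and 6.09 in untreated cells (-1.37 ± 0.16). Plaur, the urokinase receptor, fell by 0.57 ± 0.087 and Thbd, thrombomodulin, which restrains thrombin, fell by 0.61 ± 0.094. The count was thus 1 higher and 3 lower of 10 genes, against 0.863% and 0.605% of all genes tested. Plaur lost its call without Dex replicate 1 or untreated replicate 2 (limma, adjusted p 0.1 to 0.127), and Thbd without Dex replicate 1, Dex replicate 2 or untreated replicate 2 (limma, adjusted p 0.059 to 0.114).

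**Figure D3:**
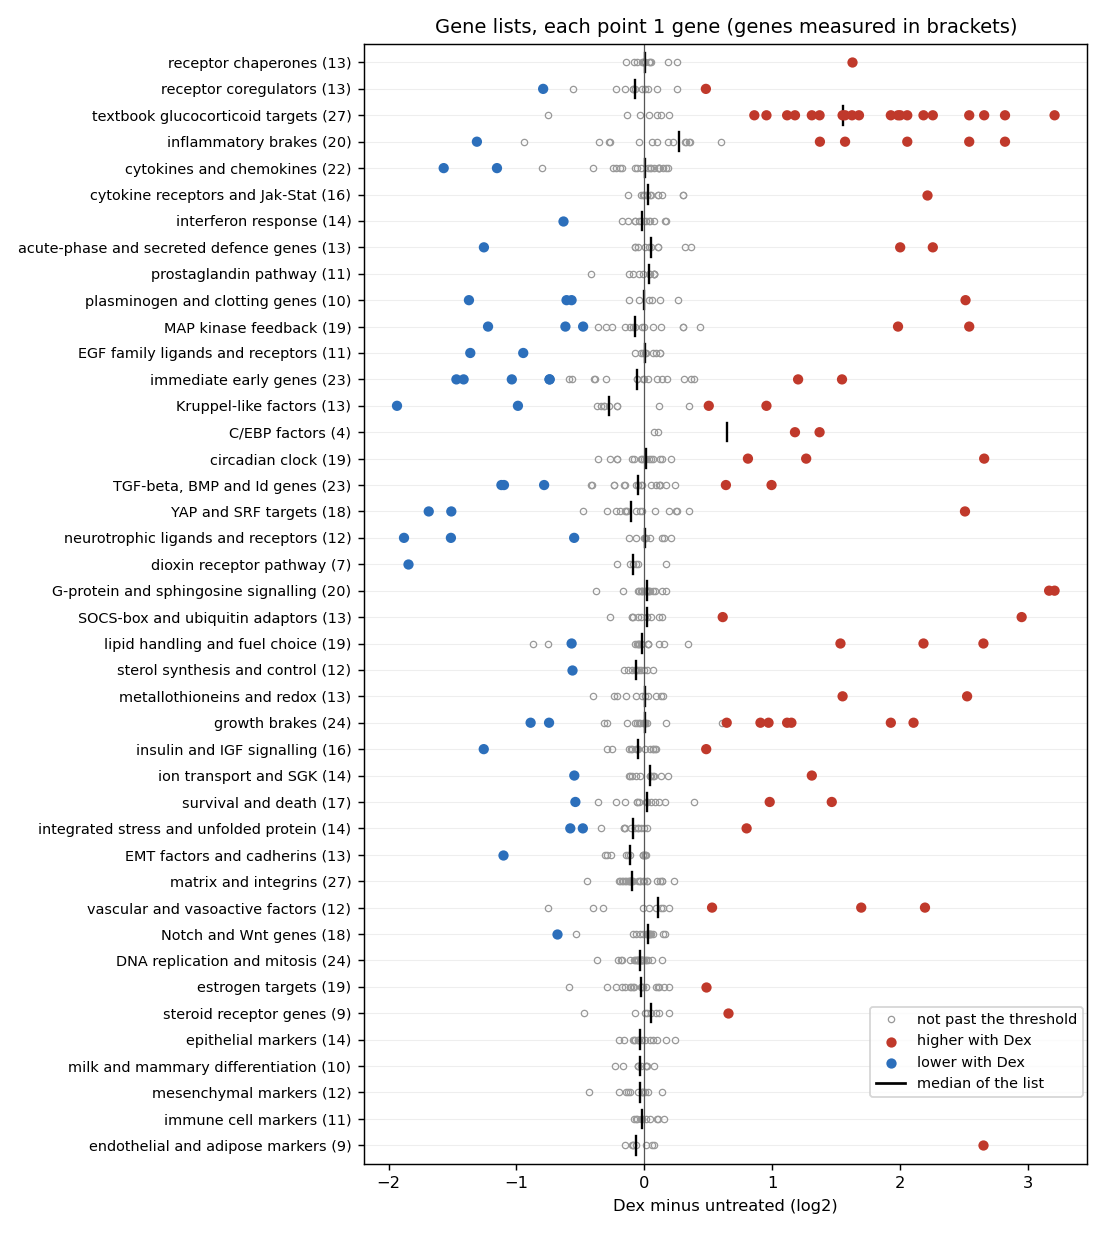
Change with Dex (Dex minus untreated, log2) of every measured gene of 42 lists, 1 point per gene and list, with genes past the threshold filled and the median of each list as a bar. The textbook targets have a median of 1.55; in most other lists single genes lie far out while the median stays near 0.

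Genes that feed back on MAP kinases changed in both directions, with 2 higher and 3 lower of 19. Over all genes tested, 0.863% rose and 0.605% fell. Dusp1, a phosphatase that inactivates p38 and JNK, had 10.98 and 10.66 with Dex, against 8.26 and 8.30 in untreated cells (2.54 ± 0.14). Errfi1, an inhibitor of EGF receptor kinases, had 11.14 and 11.04 with Dex, against 9.0 and 9.22 in untreated cells (1.98 ± 0.11). Dusp4, a phosphatase of the same family, had 6.77 and 6.73 with Dex, against 7.94 and 8.0 in untreated cells (-1.22 ± 0.087). Dusp10 fell by 0.62 ± 0.082. Spry1, an inhibitor of receptor tyrosine kinase signalling, fell by 0.48 ± 0.098. Spry1 lost its call without any 1 of the 4 arrays (limma, adjusted p 0.131 to 0.446), and with quantile normalization (0.0782), a replicate block (0.0599) and every named probe set (0.0629). Of 11 EGF family genes, 2 ligands fell and 0 genes rose. Hbegf had 7.08 and 7.20 with Dex, against 8.38 and 8.62 in untreated cells (-1.36 ± 0.12), and Ereg fell by 0.95 ± 0.15. Ereg lost its call without Dex replicate 1, untreated replicate 1 or untreated replicate 2 (limma, adjusted p 0.1 to 0.149).

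Of 23 immediate early genes, 5 fell and 2 rose, against 0.605% and 0.863% of all genes tested. Fosl2, a partner of Jun in AP-1, had 9.12 and 8.94 with Dex, against 10.52 and 10.37 in untreated cells (-1.41 ± 0.14). Plk2, a stress-induced kinase, had 9.58 and 9.30 with Dex, against 10.94 and 10.88 in untreated cells (-1.47 ± 0.20). Ier3 fell by 1.04 ± 0.10 and Ier5 fell by 0.74 ± 0.15. Fos, which pairs with Jun, rose, with 6.69 and 7.04 with Dex, against 5.66 and 5.67 in untreated cells (1.20 ± 0.21), and Maff, a small Maf factor, rose by 1.55 ± 0.14. Fos and its relative Fosl2 therefore moved apart. Fos lost its call without any 1 of the 4 arrays (limma, adjusted p 0.0679 to 0.236), as did Ier5 (0.124 to 0.426). Plk2 lost it without Dex replicate 2 (limma, adjusted p = 0.0508) and with the mean of its probe sets (limma, adjusted p = 0.122).

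Among transcription factors, 2 Kruppel-like factors rose and 2 fell of 13 measured, and the list's median was -0.275. Over all genes tested, 0.863% rose and 0.605% fell. Klf10, an early TGF-beta response gene, showed the deepest fall of the table, with 7.04 and 6.95 with Dex, against 8.86 and 9.0 in untreated cells (-1.93 ± 0.15, 3.82-fold lower). Klf3, a repressor, had 8.86 and 8.79 with Dex, against 9.86 and 9.76 in untreated cells (-0.99 ± 0.093). Klf9 had 9.54 and 9.56 with Dex, against 8.56 and 8.63 in untreated cells (0.95 ± 0.13). Klf2 rose by 0.50 ± 0.11 and lost its call without any 1 of the 4 arrays (limma, adjusted p 0.186 to 0.437) and with replicate numbers as a block (limma, adjusted p = 0.0855). Both C/EBP factors that passed, of 4 measured, rose. Cebpd had 9.98 and 10.06 with Dex, against 8.42 and 8.88 in untreated cells (1.37 ± 0.16), and Cebpb 12.70 and 12.45 with Dex, against 11.43 and 11.37 in untreated cells (1.18 ± 0.12). C/EBP factors are known regulators of acute-phase and fat cell genes.

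Of 19 circadian clock genes, 3 rose and 0 fell, against 0.863% and 0.605% of all genes tested. Per1, a repressor at the core of the clock, had 9.32 and 9.17 with Dex, against 6.72 and 6.45 in untreated cells (2.66 ± 0.13). Nfil3, a repressor of clock output genes, had 10.72 and 10.48 with Dex, against 9.22 and 9.45 in untreated cells (1.27 ± 0.13). Per2 rose by 0.81 ± 0.11, and lost its call without Dex replicate 1 (limma, adjusted p = 0.0689) or untreated replicate 2 (limma, adjusted p = 0.0636) and with the mean of its probe sets (limma, adjusted p = 0.114).

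TGF-beta and BMP genes that passed included 3 that fell and 2 that rose, of 23, against 0.605% and 0.863% of all genes tested. Smad6 and Smad7, the inhibitory Smads, fell (-1.10 ± 0.13 and -0.78 ± 0.091), and Tgif1, a Smad corepressor, had 7.61 and 7.62 with Dex, against 8.56 and 8.91 in untreated cells (-1.12 ± 0.14). Id1, an inhibitor of basic helix-loop-helix factors, rose by 0.99 ± 0.15 and Tgfbr3, betaglycan, by 0.64 ± 0.12. All 3 genes that fell encode proteins that restrain Smad signalling. They are grouped here by their calls, and a shared change of genes with that role was not tested. Id1 lost its call without Dex replicate 2 (limma, adjusted p = 0.0868) or untreated replicate 1 (limma, adjusted p = 0.0692). Tgfbr3 lost it without any 1 of the 4 arrays (limma, adjusted p 0.106 to 0.289) and with the mean of its probe sets (limma, adjusted p = 0.324).

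Targets of YAP and SRF, which respond to adhesion and the actin skeleton, did not move together: 1 rose and 2 fell of 18. The shares over all genes tested were 0.863% higher and 0.605% lower. Ccn2, a matrix-associated signalling protein, had 11.83 and 11.31 with Dex, against 8.97 and 9.15 in untreated cells (2.51 ± 0.27). Ankrd1, a nuclear ankyrin repeat protein, had 9.52 and 9.34 with Dex, against 11.07 and 11.17 in untreated cells (-1.69 ± 0.15). Thbs1, thrombospondin, had 9.96 and 9.91 with Dex, against 11.56 and 11.33 in untreated cells (-1.51 ± 0.12). Outside that list, Ajuba, a LIM protein that restrains the Hippo kinases, had 9.36 and 9.10 with Dex, against 10.61 and 10.52 in untreated cells (-1.33 ± 0.13). Of 13 genes of epithelial-mesenchymal transition, Snai2, a repressor of E-cadherin, was the 1 past the threshold, with 8.58 and 8.91 with Dex, against 9.85 and 9.86 in untreated cells (-1.10 ± 0.11).

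Of 12 neurotrophic ligand and receptor genes, 3 ligand genes fell and 0 genes rose, against 0.605% and 0.863% of all genes tested. Gdnf had 6.02 and 6.11 with Dex, against 7.93 and 7.96 in untreated cells (-1.88 ± 0.14), and Artn, a ligand of the same family, 6.17 and 6.29 with Dex, against 7.67 and 7.82 in untreated cells (-1.51 ± 0.14). Bdnf, a neurotrophin, fell by 0.55 ± 0.099, and lost its call without Dex replicate 1, Dex replicate 2 or untreated replicate 2 (limma, adjusted p 0.106 to 0.26). Gas1, which shares a fold with the receptors of these ligands and also assists hedgehog signalling, had 8.51 and 8.57 with Dex, against 9.86 and 9.85 in untreated cells (-1.32 ± 0.11). Phlda1, a pleckstrin homology domain protein, had 9.39 and 9.35 with Dex, against 11.08 and 11.08 in untreated cells (-1.71 ± 0.096).

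Ahr, the dioxin receptor, was the 1 gene of 7 of its pathway past the threshold, where 1.47% of all genes tested passed. It had 6.49 and 6.70 with Dex, against 8.49 and 8.41 in untreated cells (-1.85 ± 0.10, 3.61-fold lower). Its second, dimmer probe set differed by -0.10. Of 18 Notch and Wnt genes, Hes1, a Notch-induced repressor, was the 1 past the threshold, with 6.55 and 6.48 with Dex, against 7.13 and 7.26 in untreated cells (-0.68 ± 0.088).

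Genes of fuel use and fat handling rose in 3 cases and fell in 1, of 19. The shares over all genes tested were 0.863% higher and 0.605% lower. Fabp4, a fatty acid carrier of fat cells and endothelium, had 7.14 and 6.95 with Dex, against 4.28 and 4.51 in untreated cells (2.65 ± 0.34). The other 8 endothelial and adipose markers did not pass; Adipoq averaged 3.5 over the 4 arrays, below the lower quartile of 4.36, and the list's median was 4.37 and 4.27 on the Dex arrays, against 4.28 and 4.21 on the untreated arrays. Bulk RNA cannot tell a change in the number of cells of a type from a change in RNA per cell. Plin4, a coat protein of lipid droplets, rose by 1.53 ± 0.10. Lpin1, a phosphatidate phosphatase, fell by 0.57 ± 0.11, and lost its call without any 1 of the 4 arrays (limma, adjusted p 0.0967 to 0.438). Of 12 sterol genes Insig1, which holds back sterol synthesis, was the 1 that fell (-0.57 ± 0.10), and it lost its call without Dex replicate 1, Dex replicate 2 or untreated replicate 2 (limma, adjusted p 0.0748 to 0.274). The insulin receptor substrates split: Irs1 had 9.66 and 9.72 with Dex, against 11.01 and 10.89 in untreated cells (-1.26 ± 0.12), while Irs2 rose by 0.48 ± 0.079. Irs2 lost its call without any 1 of the 4 arrays (limma, adjusted p 0.0858 to 0.139).

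Vascular and ion transport genes added a few large changes, where 1.47% of all genes tested passed. Adm, the vasodilator adrenomedullin, had 10.25 and 9.99 with Dex, against 7.96 and 7.90 in untreated cells (2.19 ± 0.19). Ackr3, a scavenging chemokine receptor, had 10.64 and 11.17 with Dex, against 9.15 and 9.27 in untreated cells (1.70 ± 0.25), and Pgf, placental growth factor, rose by 0.53 ± 0.091, which made 3 of 12 vascular genes. Ackr3 lost its call without Dex replicate 2, untreated replicate 1 or untreated replicate 2 (limma, adjusted p 0.0569 to 0.0779), and Pgf without any 1 of the 4 arrays (limma, adjusted p 0.0794 to 0.214). Of 14 ion transport genes, Sgk1 rose and Aqp5, a water channel, fell by 0.55 ± 0.088. Aqp5 lost its call without Dex replicate 2, untreated replicate 1 or untreated replicate 2 (limma, adjusted p 0.0779 to 0.146).

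Of 24 genes that brake growth, 7 rose and 2 fell, against 0.863% and 0.605% of all genes tested. The median of the list was 0.004. Cdkn1a, the p21 inhibitor of cyclin-dependent kinases, had 12.22 and 12.19 with Dex, against 10.23 and 10.32 in untreated cells (1.93 ± 0.14). Arrdc2, an alpha-arrestin, had 8.07 and 7.69 with Dex, against 5.81 and 5.74 in untreated cells (2.10 ± 0.19). Sesn1, a stress-induced inhibitor of mTORC1, rose by 0.97 ± 0.088 and Foxo3, a growth-restraining transcription factor, by 0.91 ± 0.10. Ddit4, also an inhibitor of mTORC1, had 11.87 and 11.69 with Dex, against 10.54 and 10.79 in untreated cells (1.12 ± 0.20), and lost its call without any 1 of the 4 arrays (limma, adjusted p 0.0878 to 0.223). The 2 that fell were Gadd45a, a stress-induced growth arrest gene (-0.89 ± 0.14), and Btg1, an antiproliferative gene named after its values were seen, which had 11.71 and 11.74 with Dex, against 12.48 and 12.46 in untreated cells (-0.74 ± 0.11). Btg1 lost its call without any 1 of the 4 arrays (limma, adjusted p 0.061 to 0.0844), and Gadd45a without Dex replicate 1 or untreated replicate 2 (limma, adjusted p 0.0925 to 0.153). Of 24 genes of DNA replication and mitosis 0 passed, near the 1.47% of all genes (limma, with 0 higher and 1 lower at a raw p under 0.05). That gene was Cdc6, which loads the replicative helicase, with 8.88 and 8.68 with Dex, against 9.13 and 9.17 in untreated cells (-0.37 ± 0.13, limma, adjusted p = 0.415).

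Of 17 survival and death genes, 2 rose and 1 fell, against 0.863% and 0.605% of all genes tested. Bcl2l1, which encodes the survival protein Bcl-xL, had 10.15 and 9.92 with Dex, against 8.53 and 8.61 in untreated cells (1.47 ± 0.12). Pim3, a survival kinase, rose by 0.98 ± 0.12, and Bbc3, the pro-death protein Puma, fell by 0.54 ± 0.098. Bbc3 lost its call without Dex replicate 1, Dex replicate 2 or untreated replicate 2 (limma, adjusted p 0.0696 to 0.284). Of 14 stress response genes, Herpud1, a protein of the endoplasmic reticulum membrane, rose by 0.80 ± 0.11. Ddit3, the stress factor CHOP, fell by 0.58 ± 0.098 and Chac1, its target that degrades glutathione, fell by 0.48 ± 0.093. Herpud1 lost its call without Dex replicate 1 (limma, adjusted p = 0.0715), Ddit3 without Dex replicate 1, Dex replicate 2 or untreated replicate 2 (limma, adjusted p 0.068 to 0.202), and Chac1 without any 1 of the 4 arrays (limma, adjusted p 0.0506 to 0.319).

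None of the listed milk, epithelial, mesenchymal, matrix and immune genes passed. With 1.47% of all genes past the threshold, 0 in lists of 10 to 27 genes is near that share and says little about them. Of 10 milk and mammary differentiation genes 0 passed (limma; 0 higher and 1 lower with a raw p under 0.05). Csn1s1, a casein, had 5.02 and 4.86 with Dex, against 5.06 and 5.28 in untreated cells (-0.23 ± 0.098, limma, adjusted p = 0.713). None of 14 epithelial and 12 mesenchymal markers passed (limma; 1 higher and 1 lower, and 0 higher and 1 lower, with a raw p under 0.05). Pdgfrb, a growth factor receptor of mesenchyme, came closest, with 10.61 and 10.59 with Dex, against 11.06 and 11.01 in untreated cells (-0.43 ± 0.095, limma, adjusted p = 0.0584). It passed in 5 of the other settings, among them a fit of the 4 arrays alone (limma, adjusted p = 0.0238). Of 27 matrix and integrin genes 0 passed (limma; 1 higher and 1 lower with a raw p under 0.05), and the lower one was Has2, a hyaluronan synthase (-0.45 ± 0.11, limma, adjusted p = 0.0834). Of 11 immune cell markers 0 passed (limma; 0 with a raw p under 0.05), and Ptprc, the pan-leukocyte marker CD45, had 3.90 and 3.94 with Dex, against 3.81 and 3.72 in untreated cells.

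Genes that share a symbol stem moved apart in several cases. This grouping was made after the values were seen and covers stems of at most 30 measured genes with at least 2 past the threshold. There were 18 such stems: 4 had members that rose only, 5 had members that fell only, and 9 had members in both directions. Of all genes past the threshold, 157 rose and 110 fell, so split stems would also be frequent among unrelated genes. Whether stems split more or less often than that was not tested. Among the split stems was Tsc22d, in which Tsc22d3 rose while Tsc22d2, a relative of it, had 9.27 and 9.36 with Dex, against 10.52 and 10.28 in untreated cells (-1.09 ± 0.10). In the Ccn family, Ccn2 rose while Ccn4, a Wnt-induced member, had 9.44 and 9.51 with Dex, against 10.42 and 10.32 in untreated cells (-0.89 ± 0.10). Among the stress-induced Gadd45 genes, Gadd45g rose by 1.15 ± 0.19 and Gadd45b by 0.64 ± 0.13, and Gadd45a fell by 0.89 ± 0.14. Tent5b, of the family of terminal nucleotidyltransferases, rose by 1.22 ± 0.15 and Tent4a fell by 0.49 ± 0.091. Ddit4 and Ddit3 share a name and no protein family. Gadd45b and Tent4a lost their calls without any 1 of the 4 arrays (limma, adjusted p 0.0712 to 0.327 and 0.125 to 0.238), Gadd45g without Dex replicate 1, Dex replicate 2 or untreated replicate 1 (0.0544 to 0.154), and Gadd45a without Dex replicate 1 or untreated replicate 2 (0.0925 to 0.153). Tent4a also lost its call with the mean of its probe sets (limma, adjusted p = 0.204).

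**Figure D4:**
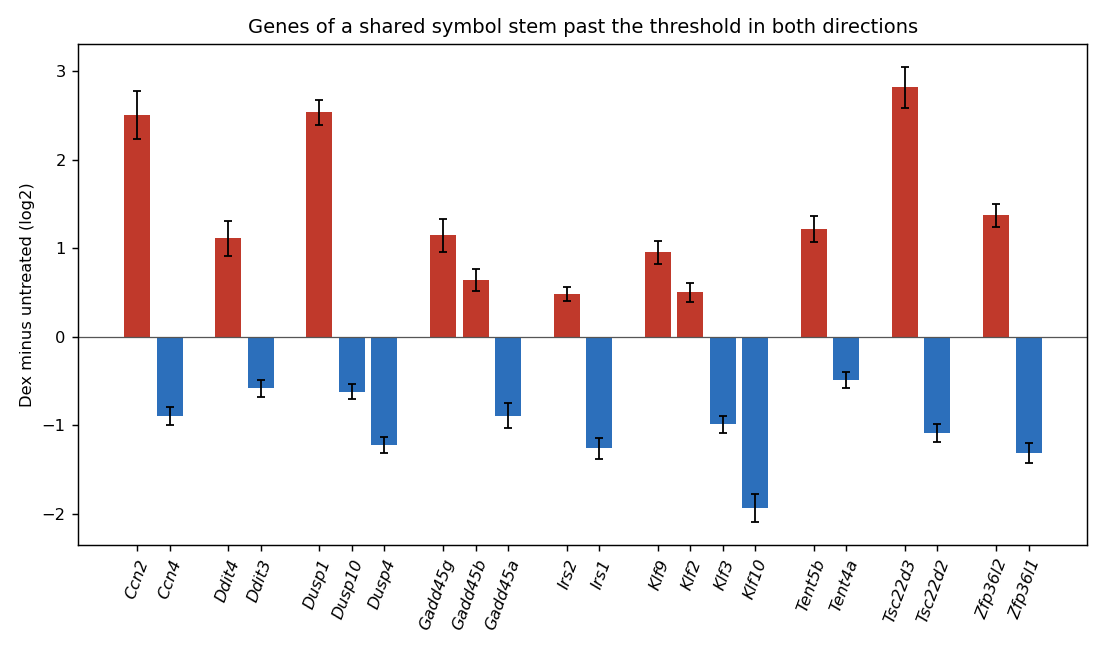
Change with Dex (bars, Dex minus untreated, log2; error bars are standard errors from limma) of genes past the threshold whose symbol stem has members in both directions. Each of the 9 stems has bars on both sides of 0, such as Tsc22d3 at 2.82 and Tsc22d2 at -1.09.

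Some neighbouring genes passed together. Among 18123 pairs of tested genes next to each other on a chromosome (RefSeq order), 7 had both genes past the threshold, and in all 7 both rose. Taken singly, 1.47% of all genes passed and 0.863% rose. Whether 7 pairs are more than these shares would give was not tested. Slc25a33, a mitochondrial nucleotide carrier next to Spsb1, had 10.82 and 10.79 with Dex, against 8.65 and 8.89 in untreated cells (2.03 ± 0.13). Ampd3, an AMP deaminase next to Adm, had 10.36 and 10.00 with Dex, against 8.67 and 8.46 in untreated cells (1.61 ± 0.18). M1ap, Dok1 and Loxl3 lie in a row and rose by 1.08 ± 0.13, 1.47 ± 0.15 and 0.86 ± 0.15. The other pairs were Ell2 with Glrx, Orm1 with Orm3, and Il12rb1 with Arrdc2. Loxl3 lost its call without Dex replicate 1, untreated replicate 1 or untreated replicate 2 (limma, adjusted p 0.129 to 0.182), and Il12rb1 without any 1 of the 4 arrays (limma, adjusted p 0.0914 to 0.238). Ell2 lost its call with the mean of its probe sets (limma, adjusted p = 0.0918).

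Other probe sets of the same genes mostly moved the same way. Of the 267 genes, 153 have more than 1 probe set, and in 78 of them another probe set also passed with the same sign; 0 passed with the opposite sign (limma, adjusted over 45101 probe sets). In 30 genes a probe set had the opposite sign, the one used being always the brightest by choice. The widest gap was in Tsc22d3, whose dim probe set differed by -0.028, against 2.82 in the one used. Fkbp5 had -0.007 in its dimmest probe set and 1.22 in another one. With the probe sets of a gene averaged, the following kept their calls (limma, adjusted p from 2.02e-05 to 0.035) at a size more than 1.5 times smaller: Spsb1 (1.37), Tsc22d3 (1.49), Fabp4 (1.35), Il6ra (1.20), Fkbp5 (0.95), Bcl2l1 (0.76), Zfp36l2 (0.58) and Klf9 (0.58) among those that rose, and Ahr (-0.97), Gas1 (-0.83), Plau (-0.82), Fosl2 (-0.77), Csf1 (-0.67), Ptx3 (-0.60), Klf3 (-0.43) and Dusp10 (-0.36) among those that fell. Over all probe sets, 415 of 45101 passed (0.92%), 258 higher and 157 lower, of which 20 and 15 have several gene symbols or none and are not described further.

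The same genes moved the same way when Dex was added to estradiol. The differences of Dex+E2 against E2 use none of the 4 arrays above. The calls of both comparisons, however, share 1 estimate of the spread from all 8 arrays and are not independent. In Dex+E2 against E2, 114 of 18194 genes passed (0.627%), 64 higher (0.352%) and 50 lower (0.275%). Of the 157 genes higher with Dex alone, 155 lay above 0 there, 60 passed higher and 0 passed lower, with a median of 0.524. Of the 110 lower genes all 110 lay below 0, 38 passed lower and 0 passed higher, with a median of -0.467. Over all genes the median there was 0.0166 and 55% had the same sign in both comparisons, against 99.3% of the 267. The exceptions were Ccnj, a cyclin, with 0.91 for Dex alone and -0.17 with E2, and Hrct1, with 0.68 and -0.03. Both are named after their values were seen. Ccnj lost its call with Dex alone without any 1 of the 4 Dex and untreated arrays (limma, adjusted p 0.0736 to 0.254), and Hrct1 without Dex replicate 1 (limma, adjusted p = 0.11) or untreated replicate 1 (limma, adjusted p = 0.0919). The count of 114 depended on single arrays: it was 858 without Dex+E2 replicate 1, 31 without E2 replicate 1 and 62 without E2 replicate 2. It was 23 in a fit of those 4 arrays alone, and 236 without both arrays whose description differs from their title, E2 replicate 2 and Dex+E2 replicate 1. Without E2 replicate 2, Dex+E2 replicate 1 or both, 148 to 155 of the 157 higher genes lay above 0 and 108 to 110 of the 110 lower genes below 0, with 0 calls in the opposite direction (limma) and medians of 0.437 to 0.551 and of -0.505 to -0.467. The higher genes that passed higher then numbered 34, 65 and 50 and the lower genes that passed lower 27, 61 and 44, in that order of arrays left out.

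**Figure D5:**
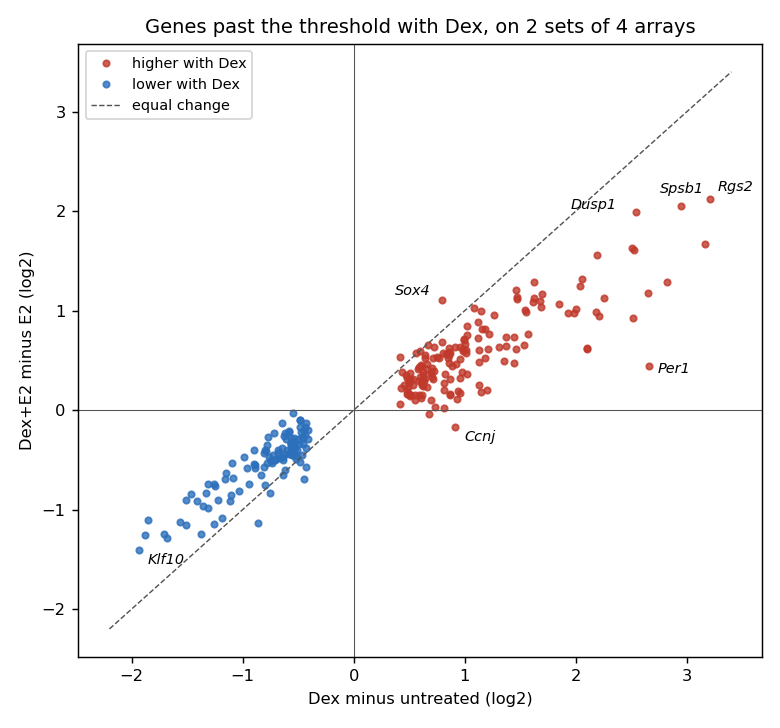
Change in Dex+E2 over E2 (log2, vertical) against change in Dex over untreated (log2, horizontal) of the 267 genes past the threshold with Dex alone; the 2 axes share no array, and the dashed line marks equal change. Of the 267 points, 265 lie in the upper right or lower left; Per1 stands out at 2.66 across and 0.44 up.

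The size of the change was smaller with E2 for 257 of the 267 genes, which were chosen on the first comparison (247 to 256 without E2 replicate 2, Dex+E2 replicate 1 or both). Among the 114 genes that passed in the second comparison, 112 had the same sign with Dex alone, and 89 of the 114 were smaller in the second, in which they had been chosen. Rgs2 had 8.89 and 8.54 in Dex+E2, against 6.22 and 6.96 in E2 cells (2.12), and Klf10 differed by -1.40 there. The genes that passed in both numbered 98, and the median ratio of their changes, with E2 over without it, was 0.706. Without E2 replicate 2, Dex+E2 replicate 1 or both, 61, 126 and 94 genes passed in both and the ratio was 0.78, 0.707 and 0.776. The set of genes that passed in the second comparison changed in these fits, so the counts of 89 and 112 hold only for the fit of all arrays. Without Dex+E2 replicate 1, alone or with E2 replicate 2, most genes that passed in the second comparison were not smaller there. A smaller share of them had the same sign as with Dex alone. The spread between the Dex+E2 arrays was the widest of the 4 groups, with 390 genes over 0.5 log2 units apart, and its part in these values was not tested. The difference between the 2 changes passed for 1 gene of 18194, Per1 (limma), and for 1, 20 and 8 genes with these arrays left out in the same order.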

How the data were processed

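The authors deposited 8 columns of log2 values, 1 per array, for the 45101 probe sets of a mouse Affymetrix platform, made with RMA in Affymetrix Expression Console, per the submitters' processing notes, with no version given. The platform annotation gave 1 symbol for 34958 probe sets, several for 932 and none for 9211. Each of 18194 genes was read from its brightest probe set (mean of the 8 arrays). limma 3.58.1 (R 4.3.3) fitted 4 group means on all 8 arrays, with 4 residual and 6.2 prior degrees of freedom, and Benjamini-Hochberg adjustment ran over the whole table. The number of arrays limits the precision (median standard error of a difference 0.0964 log2 units).

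Lists and members were chosen with earlier results of these data known. Named genes are the largest changes past the threshold whose groups do not overlap, at most 16 rises and 14 falls without predicted or clone names, up to 6 past the threshold per list (the 2 smallest p where none passed), Nr3c1, Esr1, Fkbp5, Per1, Tsc22d3, Sgk1 and Lcn2, and up to 8 genes with another probe set of opposite sign. Genes of the stem, neighbour and promoter counts were chosen after their values were seen. Promoters and gene order are RefSeq's (GRCm38.p6). List genes without a probe set of 1 symbol are not analysed here.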

Additional observations from a re-analysis of the deposited data

Results flagged for a closer look

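Per1 was the 1 gene whose response to Dex differed between cells with and without E2 by a test of the difference itself in the fit of all 8 arrays. Adding E2 changed the effect of Dex on Per1 by -2.21 ± 0.18 log2 units (Dex effect with E2 minus Dex effect without it; limma, adjusted p = 0.00348). Per1 had 9.16 and 8.84 in Dex+E2, against 8.62 and 8.5 in E2 cells (0.44 ± 0.13), and 9.32 and 9.17 in Dex, against 6.72 and 6.45 in untreated cells (2.66 ± 0.13). The E2 arrays thus lay well above the untreated arrays, by 1.97, and the Dex+E2 arrays no higher than the Dex arrays. The difference was -2.27 without E2 replicate 2, -2.37 without Dex+E2 replicate 1 and -2.43 without both (limma, adjusted p 0.00129 to 0.0188). The cause was not tested.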

How the results depend on the processing

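The count of 267 genes was 263 to 331 under the settings that keep all 4 arrays (331 with those arrays alone, 330 with a trended and robust prior, 302 with quantile normalization, 325 without either Dex+E2 array and 263 without either E2 array; the last 2 were chosen after seeing the data). Leaving out 1 of the 4 arrays gave 131 to 157 genes, and 170 to 203 probe sets, against 415. For Dex+E2 against E2, leaving out 1 array gave 31 to 858 genes the 4 arrays alone 23 and leaving out both E2 replicate 2 and Dex+E2 replicate 1 (chosen after seeing the data) 236, against 114. The cause was not tested. No call of the 267 reversed under the planned settings for this comparison, and 0 were lost with the 4 arrays alone, 41 when the probe sets of a gene were averaged. Of 106 named genes past the threshold, 71 kept the call without any 1 array; Lpin1 (adjusted p = 0.051), Ier5 (0.0548), Klf2 (0.0661), Nrip1 (0.0584) and Spry1 (0.0629) lost it in limma's fit of every named probe set. Without Dex replicate 2, the differences of Lyz2 and Esr1 turned to -0.007 and -0.008; over the fits without 1 array they ran from -0.007 to 0.221 and from -0.008 to 0.189, never past the threshold. The labels do not say that replicate numbers pair the arrays, and the deviations of same-numbered Dex and untreated arrays correlated at 0.19 (Dex+E2 and E2 at -0.164). With the replicate block, 265 genes passed, 18 of the 267 were lost, 372 probe sets passed, and 82 genes for Dex+E2 against E2; Klf2, Spry1 (adjusted p = 0.0599) and Chac1 (0.058) lost their calls in that limma fit.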
